A study of Rattus norvegicus with 6 samples.

Results

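A set of 6 genes of the unfolded protein response and the integrated stress response was examined by RNA sequencing in rat cortex at embryonic day 18. They were Hspa5 (ENSRNOG00000018294), Atf4 (ENSRNOG00000017801), Ddit3 (ENSRNOG00000006789), Atf3 (ENSRNOG00000003745), Trib3 (ENSRNOG00000007319) and Asns (ENSRNOG00000007546), 6 of the 32754 gene IDs in the deposited count table. They were chosen by name and not by a rule on their values, but with earlier results of these data known. The names came with the list of Ensembl IDs that defined the set. The table itself gives IDs alone, and 0 of the 6 IDs could be checked against a gene annotation of its build, so each name rests on that list.

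The control group was the Sprague-Dawley strain (SD), with 3 embryos. The other group was 3 embryos of the tish rat (telencephalic internal structural heterotopia), a line whose cortex has neurons lodged in a second band under the regular one and in which the title of the series places a deletion in Eml1, the gene of a microtubule-associated protein. Each group held 2 males and 1 female. By the protocol, SD tissue was neocortex, while tish tissue took in the heterotopic cortex along with the normally placed neocortex, although the per-sample labels say cortex in the controls and neocortex in the mutants. Thus tissue and genotype changed together and cannot be told apart. Litter was not among the labels used here. If embryos shared a dam, the p-values measure the spread between embryos and not between litters. Because whole tissue was sequenced, a lower level can come from fewer cells of a type or from less RNA per cell. A higher level can likewise come from more cells of a type or from more RNA per cell. The counts cannot tell these apart. The levels of cell type markers, of Eml1 and of other genes of the pathway were not analysed here, for want of names for their IDs.

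The unfolded protein response is set off when unfolded proteins build up in the endoplasmic reticulum (ER), where sensor proteins in the membrane are otherwise held inactive by the chaperone BiP. The sensor PERK phosphorylates the translation factor eIF2alpha, a step shared with kinases that sense amino acid shortage, viral RNA and haem shortage, and the common downstream programme is the integrated stress response. Bulk protein synthesis then falls while translation of the transcription factor ATF4 rises, so that ATF4 activity can change with little change in Atf4 mRNA. In developing cortex the PERK and ATF4 branch is known to influence when progenitors make neurons.

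The promoters of 3 of the genes are shown first, with known response elements of these branches marked where their letters occur. Each sequence is the 250 bases before the RefSeq start, 5′ to 3′ on the strand of the gene, from assembly GRCr8. Capitals mark, on either strand, the fixed bases of matches to the motifs searched, which are spelled out below the sequences. Hspa5 is shown for its complete ER stress response element, and Trib3 for a C/EBP-ATF element, the type of site that ATF4 binds with C/EBP partners. Asns is shown because it was the only gene of the set that passed the test between the genotypes, given below. They lie at chr3:38452766-38453015 on the + strand, chr3:161275534-161275783 on the - strand and chr4:36769416-36769665 on the - strand.
Hspa5: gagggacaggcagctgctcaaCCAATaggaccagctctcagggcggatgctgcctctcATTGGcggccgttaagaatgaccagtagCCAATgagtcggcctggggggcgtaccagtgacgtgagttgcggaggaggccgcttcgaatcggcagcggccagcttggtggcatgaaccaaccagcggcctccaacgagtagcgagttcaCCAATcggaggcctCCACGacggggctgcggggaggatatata
Trib3: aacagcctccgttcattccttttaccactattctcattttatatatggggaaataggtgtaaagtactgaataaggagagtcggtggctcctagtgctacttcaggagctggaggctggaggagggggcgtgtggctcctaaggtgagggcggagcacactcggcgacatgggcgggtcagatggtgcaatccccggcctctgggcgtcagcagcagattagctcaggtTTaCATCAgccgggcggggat
Asns: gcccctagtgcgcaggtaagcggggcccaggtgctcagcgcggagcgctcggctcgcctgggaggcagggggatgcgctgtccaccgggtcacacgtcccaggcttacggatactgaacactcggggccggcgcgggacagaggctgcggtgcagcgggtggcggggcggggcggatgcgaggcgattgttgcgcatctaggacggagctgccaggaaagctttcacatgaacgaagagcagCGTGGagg

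A promoter was found for 5 of the 6 genes. Matches were sought on both strands in 300-base windows, the 250 bases before the start and 50 after it, and the same search was run on 27457 genes of the RefSeq table. The ER stress response element, CCAAT followed after 9 bases by CCACG, is bound by ATF6 together with NF-Y. It was present in 0.0765% of all windows and in Hspa5, where it extended from base -43 to base -25 relative to the start. Its parts were far more common: CCAAT was in 37.7% of all windows and in Hspa5 and Ddit3, and CCACG was in 32.5% of all windows and in Hspa5, Ddit3, Atf4 and Asns. Both parts also count wherever the whole element matches. Hspa5 held 4 CCAAT matches in all. In Ddit3 the CCACG and CCAAT matches lay apart, with first bases at -142 and -76. Only exact matches to the fixed bases were counted, so elements with a differing base were missed. The reverse-strand CCAAT of Ddit3 is followed, after 9 bases, by a stretch that differs from CCACG in its first base alone.

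The C/EBP-ATF element TGATGNAAN was in 3.80% of all windows and in Trib3, on the reverse strand from base -22 to base -14. Its core TGATG, part of the same match, was in 39.5% of windows and again in Trib3 alone among the 5 genes searched. The unfolded protein response element TGACGTGG and the cyclic AMP response element TGACGTCA were in 0.637% and 1.91% of windows and in 0 of the 5. A match or its absence describes the letters of this window and says nothing of binding. No other window of a gene was searched, so sites outside it or near another start were not sought, in Asns as in the others.

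Library totals ran from 15625915 to 20844504 counts, and libraries of the same group differed beyond counting error. The chi-square between replicates was 8.56 to 24.5 times its degrees of freedom, and the pairs with SD 1 gave the values of 21.6 and 24.5. Levels are given in CPM, the count of a gene as a share of its library's total after TMM scaling. Differences were tested with edgeR's quasi-likelihood test over 14818 genes, with p-values adjusted over all of them and a call at an adjusted p under 0.05. Of the 6 genes, 5 passed the count filter, and Trib3 did not.

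Asns, which makes asparagine and is a classical target of ATF4, rose in tish by 55.1% with a 95% interval of 29.8% to 85.4%. The other 4 tested genes did not pass the test. Hspa5, Ddit3 and Atf3 had lower means in tish and Atf4 had a higher mean. So 1 of the 5 tested genes was called, where 26.3% of all tested genes were called in either direction, 13.4% higher and 12.9% lower. No overlap between the groups was seen in 2 of the 5, Asns and Hspa5, against 44.3% of all tested genes. Neither count stands above these backgrounds. The median log2 fold change of the 5 was -0.21 and that of all tested genes was -0.02. The number of all tested genes called was 3894 with all libraries. With 1 library left out it ran from 2437 without tish 1 and 2502 without tish 3 to 4764 without SD 1.

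**Figure D1:**
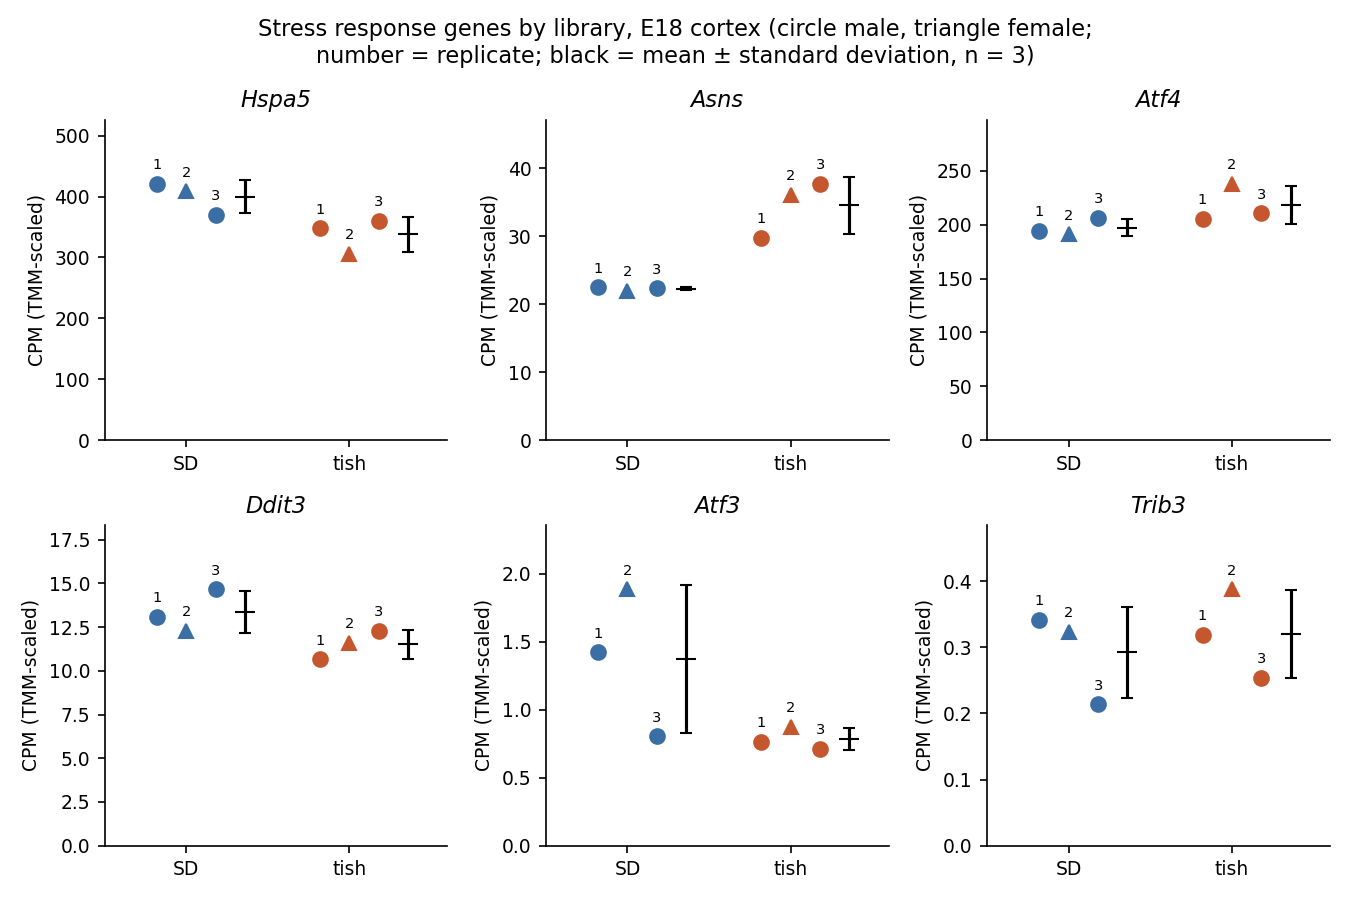
Level of each gene in each library, in TMM-scaled CPM on a linear axis from 0, with SD in blue and tish in orange, circles for males, triangles for females, and the mean ± standard deviation of 3 libraries in black. The 3 Asns values of tish lie at 29.7 to 37.7 CPM, above the SD values of 22.0 to 22.5 CPM, and the Hspa5 groups also part, while the other 4 genes overlap.

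Hspa5 encodes BiP, a chaperone of the ER lumen and a usual readout of the ATF6 branch. In SD 1, SD 2 and SD 3 its level was 421, 408 and 370 CPM. The tish libraries 1, 2 and 3 had 348, 306 and 360 CPM. Every tish library lay below every SD library, with SD 3 and tish 3 as nearest neighbours. Mean levels were 400 ± 26.5 CPM for SD and 338 ± 28.6 CPM for tish (± 1 standard deviation, n = 3). The log2 fold change was -0.24 (SE 0.09, edgeR unadjusted p = 0.0274, adjusted p = 0.0836), and its 95% interval, -0.45 to -0.03, corresponds to changes of -26.9% to -2.30%. The adjusted p missed the threshold. It crossed it in 1 of 16 alternative settings, without scaling factors, at a log2 fold change of -0.28 and an adjusted p of 0.0490. With the males alone the log2 fold change was -0.15 (adjusted p = 0.368).

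Atf4 encodes the transcription factor at the centre of the integrated stress response. SD 1, SD 2 and SD 3 stood at 194, 191 and 206 CPM. The values for tish 1, tish 2 and tish 3 were 206, 238 and 211 CPM. The groups overlapped narrowly, since tish 1 lay just below SD 3, and tish 2 was the highest library. SD averaged 197 ± 8.12 CPM and tish averaged 218 ± 17.4 CPM (± 1 standard deviation, n = 3). The log2 fold change of 0.15 (SE 0.08, edgeR adjusted p = 0.233) had a 95% interval that corresponds to changes of -2.90% to 25.9%. Without tish 2 it was 0.08, and with the males alone 0.06. These are levels of mRNA, and the translation of Atf4 was not measured.

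Ddit3 encodes CHOP, a transcription factor that PERK and ATF4 induce and that promotes cell death when ER stress persists. Its level was 13.1, 12.3 and 14.7 CPM in the SD libraries 1, 2 and 3. In the tish libraries 1, 2 and 3 it was 10.7, 11.6 and 12.3 CPM. The groups met at SD 2 and tish 3, which had nearly the same level. The log2 fold change was -0.21 (SE 0.14, edgeR adjusted p = 0.290), and the 95% interval corresponds to changes of -30.3% to 6.99%. SD averaged 13.3 ± 1.21 CPM and tish averaged 11.5 ± 0.827 CPM (± 1 standard deviation, n = 3). The spread in each group was close to counting error, as the coefficients of variation of 9.08% and 7.18% compare with 6.40% and 6.80% from counting alone.

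Atf3 encodes a transcription factor of the same basic leucine zipper class, induced by ATF4 but also by many other acute signals. Its counts were low, with 25, 35 and 15 reads in the SD libraries 1, 2 and 3, while the tish libraries 1, 2 and 3 had 12, 18 and 14. In CPM that is 1.42, 1.89 and 0.803 in SD and 0.765, 0.873 and 0.711 in tish. SD 1 and SD 2 stood above all tish libraries, while SD 3 fell among them. All 6 libraries reached the 0.537 CPM that the count filter asks for in at least 3. The coefficient of variation was 39.7% in SD, against 20% from counting alone, and 10.5% in tish, against 26.1%. The log2 fold change of -0.80 (SE 0.36) carried an adjusted p of 0.130 in edgeR, with a 95% interval that corresponds to changes of -67.0% to 0.289%. It was -0.49 without SD 2 (adjusted p = 0.397) and -1.08 without SD 3 (adjusted p = 0.0532).

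Asns had the lowest adjusted p of the 5 tested genes. The SD libraries 1, 2 and 3 held 395, 408 and 417 of its reads, and the tish libraries 1, 2 and 3 held 466, 744 and 742. Scaled to library size these are 22.5, 22.0 and 22.3 CPM in SD and 29.7, 36.1 and 37.7 CPM in tish. The SD libraries were almost level, tish 1 was the lowest of its group, and the groups did not overlap. SD averaged 22.3 ± 0.245 CPM and tish averaged 34.5 ± 4.22 CPM (± 1 standard deviation, n = 3). The coefficient of variation in SD, 1.10%, was below the 4.96% that counting alone gives on average, so the closeness of those 3 values is no measure of how little animals vary. In tish it was 12.2%, against 3.92% from counting. The log2 fold change was 0.63 (SE 0.11, 95% interval 0.38 to 0.89, edgeR adjusted p = 0.00408), which is larger in size than that of 80.5% of tested genes. Among the called genes of the whole table the median absolute log2 fold change was 0.69.

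The call of Asns held in all 16 alternative settings, with log2 fold changes of 0.57 to 0.73 and adjusted p-values of 4.44e-05 to 0.0389. The highest adjusted p came from the males alone, 2 against 2. Without SD 1 and tish 3 together the log2 fold change was 0.57 (adjusted p = 0.0197). Leaving out tish 1, the lowest tish library, gave 0.73.

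**Figure D2:**
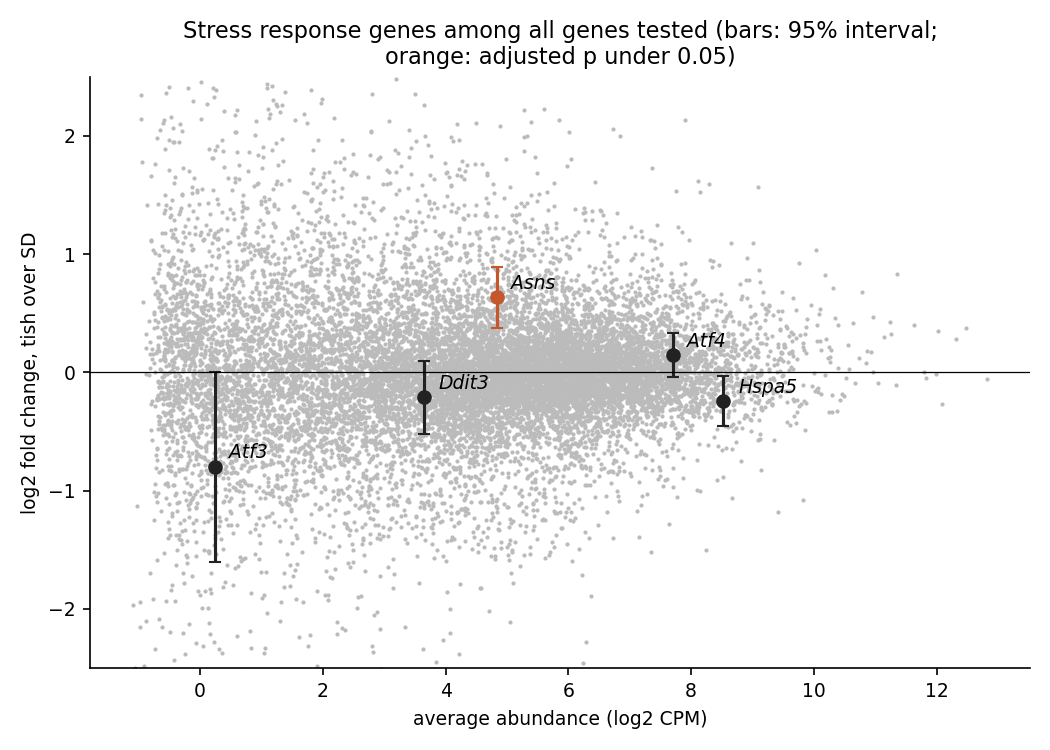
Log2 fold change of tish over SD against average abundance in log2 CPM for the 14818 tested genes in grey, with 5 stress response genes and their 95% intervals; 108 genes lie outside the plotted range of ±2.5. Asns, in orange, is the gene called, at 0.63, and the interval of Atf3 is the widest of the 5.

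Trib3 encodes a pseudokinase that ATF4 and CHOP induce and that in turn restrains ATF4. The SD libraries 1, 2 and 3 had 6, 6 and 4 reads of it, and the tish libraries 1, 2 and 3 had 5, 8 and 5. Every library thus lay near the limit of 3 counts that a count of 0 allows, which is 0.144 to 0.192 CPM here. Summed over libraries there were 18 reads in tish and 16 in SD. Corrected for library size this gave a ratio of 1.10, and its exact 95% interval of 0.530 to 2.31 covers counting error only. At this depth the counts do not narrow the ratio further than that interval.

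**Figure D3:**
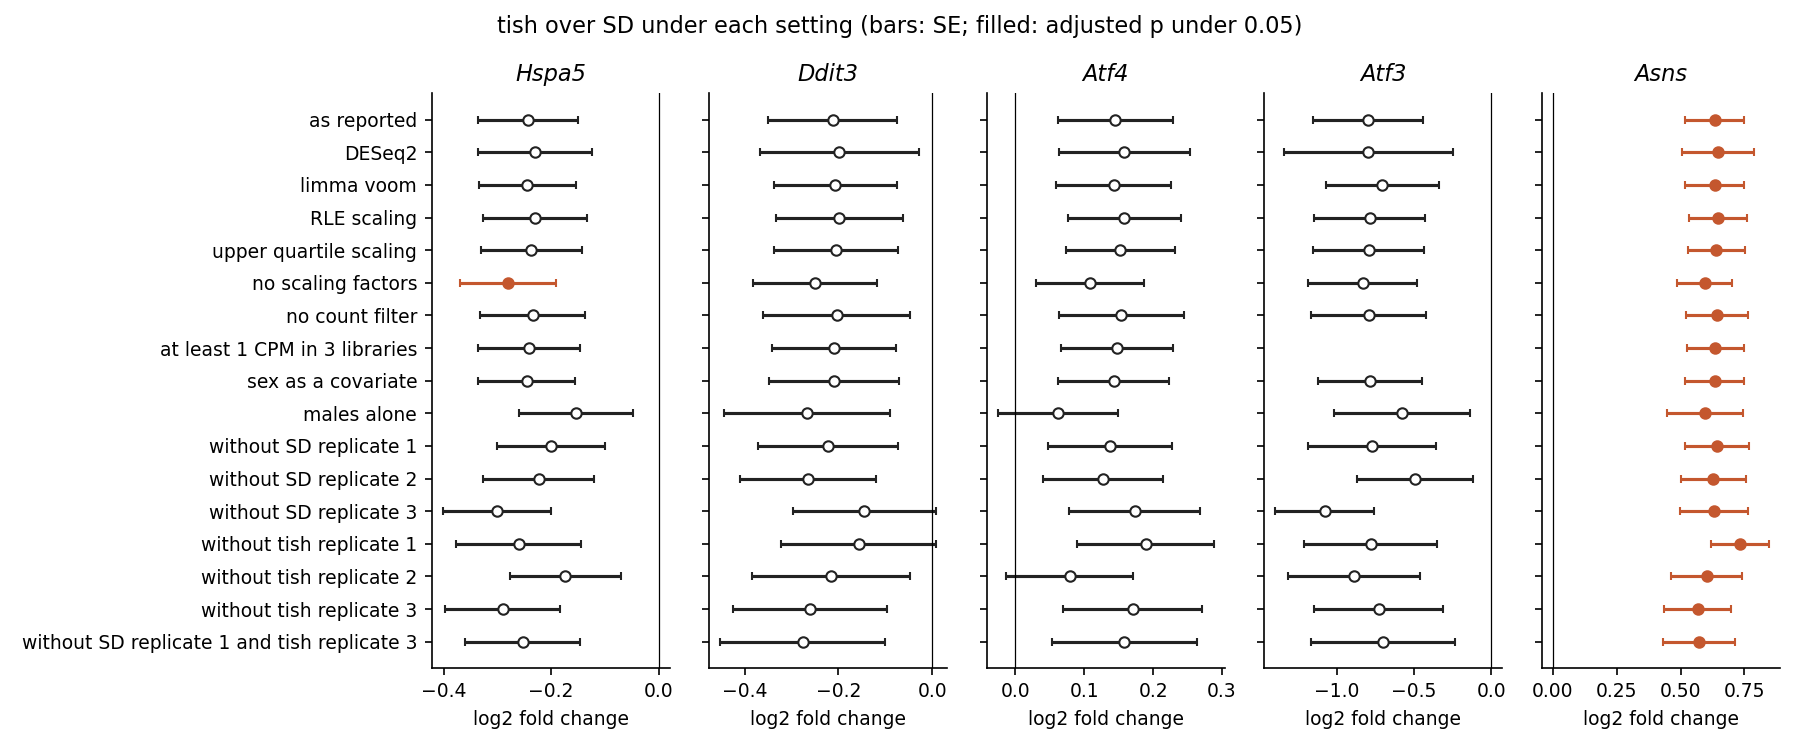
Log2 fold change of tish over SD with its standard error for the 5 tested genes under the reported fit and 16 alternatives (Atf3 missed the filter of 1 CPM in 3 libraries), each panel on its own scale; filled orange points have an adjusted p under 0.05. All points of a gene lie on the same side of 0, and the filled ones are all those of Asns and 1 of Hspa5.

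Ratios between the genes within a library do not depend on any scaling between libraries, and they set Asns beside the other genes. For each Asns count the SD libraries 1, 2 and 3 held 8.64, 8.69 and 9.25 Atf4 counts, and the tish libraries 1, 2 and 3 held 6.92, 6.59 and 5.59. The ratio of Atf4 to Asns was thus lower in every tish library, by 0.48 on average on the log2 scale, a level 0.716 times that of SD. Hspa5 to Asns was 18.7, 18.6 and 16.6 in the SD libraries and 11.7, 8.47 and 9.56 in the tish libraries, a level 0.548 times that of SD, without overlap. Ddit3 to Asns was 0.582, 0.559 and 0.657 in SD and 0.358, 0.321 and 0.326 in tish, a level 0.560 times that of SD.

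Among Hspa5, Ddit3 and Atf4 the ratios differed less, while those with Atf3 varied widely within SD. The ratio of Hspa5 to Ddit3 was nearly equal in the groups, at 0.978 times its SD level, and the groups overlapped. Hspa5 to Atf4 was 2.17, 2.14 and 1.79 in SD and 1.69, 1.28 and 1.71 in tish, which did not overlap. Ddit3 to Atf4 was likewise lower in every tish library, at 0.782 times its SD level. Of 10 pairs compared, 7 did not overlap between the groups, where 45.2% of all pairs of tested genes with a count in every library did not. Of the 7, 4 contain Asns and repeat the difference of that gene, since the ratio of Asns to 71.2% of all other such genes did not overlap either. The other 3 of the 7 are among 6 pairs without Asns, a share close to that of all pairs. These 3 are Hspa5 to Atf4, Ddit3 to Atf4 and Atf4 to Atf3, the last at 1.83 times its SD level. All 3 contain Atf4. Against all other such genes, the ratios of Atf4, Hspa5, Ddit3 and Atf3 did not overlap in 44.9%, 44.1%, 42.7% and 32.7% of cases. Each of the 7 had an exact two-sided permutation p of 0.1, the smallest that 3 against 3 allows (0.143 after Benjamini-Hochberg adjustment over the 10). The pairs share genes and are not independent, and this design could not bring any of them under 0.05.

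**Figure D4:**
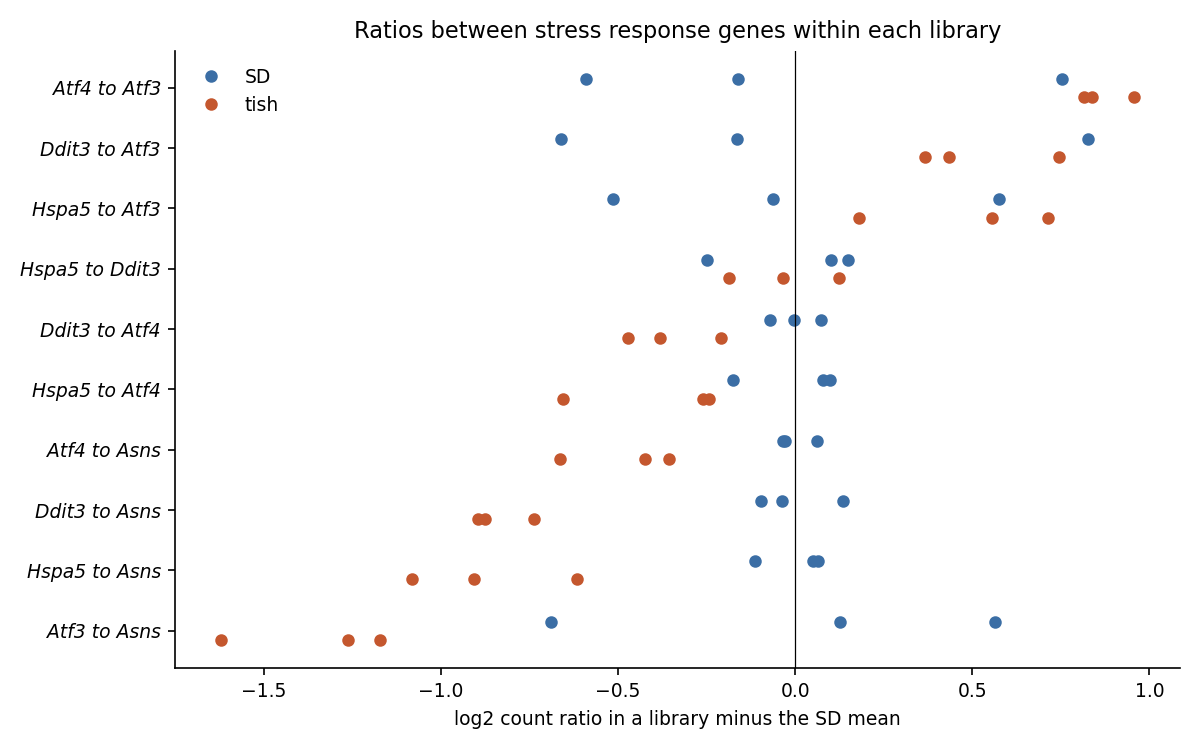
Log2 ratio of the counts of 2 genes in each library minus the mean of SD, for the 10 pairs of the 5 tested genes, with SD in blue and tish in orange. The 4 pairs with Asns all lie lower in tish without overlap and share the difference of that gene. Against Asns, 71.2% of all other tested genes with a count in every library had ratios without overlap, in either direction. Hspa5 to Ddit3 shows the smallest difference.

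No difference by sex passed the test. With genotype in the same edgeR model, 4 males against 2 females, 0 of the 5 tested genes had an adjusted p under 0.05 and 0 an unadjusted p under 0.05, where 0.0405% of all tested genes were called. The widest estimate was that of Atf3, whose level in females exceeded that in males by 0.54 on the log2 scale (SE 0.34, adjusted p = 0.577), with a 95% interval of -0.23 to 1.31. For Asns the value was 0.04 with an interval of -0.23 to 0.31.

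The mean of the 5 tested genes' standardised levels (each gene centred and divided by its standard deviation over the libraries) ranged from -0.47 in tish 1 to 0.18 in SD 1, with tish 2 and tish 3 at 0.06 and 0.08. It joins Asns and Atf4, whose means were higher in tish, with Hspa5, Ddit3 and Atf3, whose means were lower. Opposite differences thus offset each other in this mean. The genes most like this mean over the 6 libraries, out of 13804 with at least 1 CPM, were ENSRNOG00000027455 (Pearson's r = 0.99) and ENSRNOG00000030452 (r = 0.98). Their names are not in the sources used here, and with 6 libraries in 2 genotypes these values only describe the closest profiles.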

How the data were processed

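RNA was sequenced in 6 libraries of embryonic cortex, 1 per embryo, 3 SD and 3 tish. The deposited file is a single table of raw counts by Ensembl gene, from reads aligned with STAR to Rnor_6.0 and counted with featureCounts 1.5.0, per the submitters' processing notes. The sources do not give the aligner's version, the release of the annotation, whether counting used strand, or how multiply mapped reads were handled, and reads shared with overlapping genes or near-identical copies are uncertain. The table lists its genes 2 times, 0 values differ between the parts, and each of 32754 IDs was used once. Columns were assigned to samples by library name. The reference table lists 47357 genes of GRCr8 and gives an Ensembl ID for 0 of them. All 6 gene symbols are in it, but 0 of the 6 IDs could be matched. The planned lists of pathway genes and cell type markers were therefore not analysed here.

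The deposited counts were fitted in R 4.3.3 with edgeR 4.0.16 (filterByExpr with a minimum count of 10, TMM, robust glmQLFit and glmQLFTest, genotype as the only term), with Benjamini-Hochberg adjustment. The SE is the log2 fold change divided by the square root of F. Depth was 15625915 to 20844504 counts per library. The alternatives tried were limma 3.58.1 (voom), DESeq2 1.42.0, other scalings and filters, sex as a term, males alone and each library left out. The removal of SD 1 and tish 3 together, the pair ratios with their share over all pairs, and the test of sex were added after the data were seen. Scripts were tested on simulated data. All 6 genes were printed by rule, with the 2 most alike in profile. The genes, lists and tests were chosen with earlier results of these data known. Promoters are those of RefSeq, assembly GRCr8. Permutation tests used scipy 1.17.1.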

Additional observations from a re-analysis of the deposited data

How the results depend on the processing

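For the 5 tested genes, 78 of 79 alternative values kept their direction and their side of the threshold and 0 reversed. The other was Hspa5 without scaling factors, at a log2 fold change of -0.28 (edgeR adjusted p = 0.0490). That setting called 2 of the 5 tested genes, against 1 otherwise. Over all 14818 tested genes it called 4030, against 3894 in the reported fit. Of all its calls 43.4% were higher in tish, against 50.8% in the reported fit. With 1 library left out, log2 fold changes ran from -0.30 to -0.17 for Hspa5, -0.26 to -0.14 for Ddit3, 0.08 to 0.19 for Atf4, -1.08 to -0.49 for Atf3 and 0.57 to 0.73 for Asns, and the log2 ratio of summed Trib3 counts ran from -0.05 to 0.30. Genes called over the whole table numbered 2130 with the males alone, 2437 to 4764 with 1 library left out, and 3894 with all. Without SD 1, SD 2 and SD 3 they were 4764, 2916 and 2653. Without tish 1, tish 2 and tish 3 they were 2437, 3024 and 2502. The cause was not tested. Searching for parts of the ER stress response element in place of the whole raised the matching promoters from 1 to 2 (CCAAT) and 4 (CCACG), since shorter motifs match more often. Atf3 had no value under the filter of 1 CPM in 3 libraries, Trib3 entered the test with no count filter alone (adjusted p = 0.897), and the alternative for pathway lists was not run. Depth limits Trib3 and Atf3. No paired analysis was possible because the labels give no replicate numbers: 1 to 3 are names in sample order, and the matching order of the sexes pairs no animals.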
